A study of Mus musculus with 2 samples.

Results

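Igf2, H19 and 7 other genes of fetal growth (Cdkn1c, Peg3, Grb10, Plagl1, Hmga2, Igf2bp2 and Igf2bp3) were followed by single-cell RNA sequencing in sorted mouse lung cells, shortly before birth and in the second week of life. These 9 genes, of 32285 in the count tables, were chosen by symbol, and all 9 were found in both tables. The study marked cells that express Cdh16, the gene of kidney cadherin, with the red fluorescent protein tdTomato and sequenced the red cells. Of the 2 libraries, 1 was made late in gestation (embryonic day E18.5) and 1 at postnatal day 10 (P10), both with the same batch label. The E18.5 library held 12027 cells that passed the filter, with a median per cell of 8959 unique molecular identifiers (UMIs, tags that mark single RNA molecules). At P10 there were 14086 cells and a median of 10250.5 UMIs.

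Both groups carried a tamoxifen-inducible Cre recombinase under control of Cdh16 (Cdh16CreERT2) and a tdTomato reporter, which the sample labels write as tdTomatoflox/flox and the series design as R26-tdTomatoflox/wt. Tamoxifen was given to the pregnant females from embryonic day 12.5, either injected at 0.1 mg per kg of body weight or in a diet of 0.4 g per kg of food, and the route used for each library was not given in the sources used here. Red cells were sorted within the population stained for CD326, the protein encoded by Epcam. The P10 library is labelled as embryonic lung like the other, and its age was taken from its time point. No library of E16.5 was used here. How many animals went into each library was not given, and with 1 library per age every difference between ages lacks a replicate check, so no p-value was computed. All intervals are 95% intervals that cover counting error only, since UMIs of 1 library share its animals, sort and preparation.

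The label "alveolar epithelial" held for most but not all cells. Clusters named by epithelial markers held 8931 of the 12027 cells at E18.5 and 11154 of the 14086 at P10, and the rest included 635 and 212 mesenchymal, 328 and 384 endothelial and 417 and 1253 immune cells. Alveolar RNA was found in all of them. Sftpc, the surfactant gene of alveolar type 2 (AT2) cells, stood at 25518.5 CPM (UMIs of the gene scaled to 1000000 UMIs of the summed cells) in E18.5 immune cells and at 35650.1 CPM in P10 immune cells. Summed epithelial marker genes stood at 2470 to 2994 CPM in these mesenchymal, endothelial and immune cells at E18.5 against 5174 in epithelial cells, and at 649 to 1117 against 2148 CPM at P10. The 2 libraries shared 59 cell barcodes. In what follows, the level in immune cells is given for comparison. It holds RNA from epithelial cells as well as any made by immune cells, so it is not a baseline for genes that epithelial cells express. Igf2bp3 had its highest P10 level in immune cells, and Igf2bp2 stood higher there than in AT2-like cells at E18.5.

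Igf2 encodes insulin-like growth factor 2, a growth factor of the fetus, and is expressed from the paternal chromosome, while the neighbouring noncoding RNA H19 and the cell cycle inhibitor Cdkn1c (p57) are expressed from the maternal one. Peg3 and Plagl1 encode zinc finger proteins made from the paternal chromosome, and Grb10 encodes an adaptor that dampens signalling of the insulin and IGF receptors and is expressed mainly from the maternal one in most tissues outside the brain. Hmga2, a chromatin protein of undifferentiated cells, and the RNA-binding proteins Igf2bp2 and Igf2bp3, which bind Igf2 mRNA among others, are called oncofetal because they are high in the embryo and come back in tumours. Hmga2 and the Igf2bp family are textbook targets of the let-7 microRNAs, which accumulate as tissues mature.

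Igf2 lies on chromosome 7, 142650766 to 142666816, minus strand, in the mm10 build, and H19 downstream of it at 142575529 to 142578143, minus strand. Cdkn1c is in the same imprinted stretch of chromosome 7, at 143458339 to 143461050, and Peg3 lies far from it, at 6703892 to 6730431, both on the minus strand. Grb10 covers 11930508 to 12038683 of chromosome 11, minus strand. On chromosome 10 lie Plagl1, 13060504 to 13131694, plus strand, and Hmga2, 120361275 to 120476469, minus strand. Igf2bp2 covers 22059009 to 22163299 of chromosome 16 and Igf2bp3 49085223 to 49214957 of chromosome 6, both on the minus strand. The H19 gene contains the hairpin of miR-675 and the Igf2 gene that of miR-483. Antisense or overlapping annotations lie over Igf2, Cdkn1c, Hmga2 and the end of Igf2bp3, and whether strand was used in counting was not given, so those reads cannot be told apart. Igf2os, the antisense RNA of Igf2, had 24 UMIs at E18.5 in all.

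The let-7 family is shown because it joins 3 of the genes by sequence. The mature microRNAs below, from RefSeq on GRCm38.p6, share 1 seed, bases 2 to 8 in capitals, with 11 mature names in all. Their own levels were not measured in these libraries. Let-7a is encoded at chr13:48538239-48538260 (minus strand), let-7g at chr9:106178846-106178867 (plus strand) and miR-98 at chrX:151913229-151913250 (plus strand).
mmu-let-7a-5p: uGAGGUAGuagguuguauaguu
mmu-let-7g-5p: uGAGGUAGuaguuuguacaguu
mmu-miR-98-5p: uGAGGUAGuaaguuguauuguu

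The match to this seed followed by an A, CTACCTCA on the sense strand, was searched in the longest annotated 3′ untranslated region of every gene. It was found in Hmga2, Igf2bp2 and Igf2bp3, once each, out of the 8 protein-coding genes of the set. Of all 21037 genes with such a region, of any length, 3.06% held it. The regions of the 3 genes are 1784 to 3014 bases long. These genes were known as let-7 targets beforehand, so the count beside that share is a description and not a test. The sites, with the match in capitals, lie at chr10:120364224-120364245 for Hmga2, chr16:22059473-22059494 for Igf2bp2 and chr6:49086787-49086808 for Igf2bp3, all on the minus strand of mm10.
Hmga2: ccgacattcaatttCTACCTCA
Igf2bp2: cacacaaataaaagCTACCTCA
Igf2bp3: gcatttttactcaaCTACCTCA

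Shorter matches, CTACCTC or TACCTCA with each stretch counted once, were found 7 times in Hmga2, 2 times in Igf2bp2 and once each in Igf2bp3, Igf2, Peg3 and Grb10, and not in Cdkn1c or Plagl1. Only 0.162% of all genes held 4 or more of them. H19 also gives rise to a microRNA of its own. It is shown here because its host transcript had the largest ratio between ages of the 9 genes over whole libraries. It lies at chr7:142577112-142577133 (minus strand, GRCm38.p6), inside H19.
mmu-miR-675-5p: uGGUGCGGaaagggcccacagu

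Over whole libraries, all 9 genes stood higher at E18.5 than at P10, and 6 of them by at least 2-fold. Of the 9177 genes measured at 10 CPM or more in either library, 13.5% were at least 2-fold lower at P10, 12.1% were at least 2-fold higher, and log2 ratios (P10 to E18.5) had a median of 0.02 over all of them against -1.56 over the 9. H19 had 23.0 CPM before birth and 0.650 CPM after it, a ratio of 35.5 (29.4 to 43.3). Hmga2 stood at 32.6 and 2.82 CPM, a ratio of 11.6 (10.5 to 12.7). Igf2 stood at 17.7 and 2.12 CPM, 8.33 times higher at E18.5 (7.46 to 9.33), and Cdkn1c at 168 and 20.4 CPM, 8.23 times higher (7.94 to 8.53). Igf2bp3 (62.4 and 21.1 CPM) and Peg3 (61.6 and 23.3 CPM) were 2.95 and 2.65 times higher at E18.5. Grb10 (96.9 and 61.8 CPM), Plagl1 (53.7 and 33.8 CPM) and Igf2bp2 (93.4 and 71.9 CPM) lay within 2-fold of each other at the 2 ages. H19, Hmga2 and Igf2 reached 10 CPM at E18.5 only, so by the 10 CPM minimum they could not be called higher at P10. The shares over all genes were counted by the same rule. Over these whole-library sums the set thus ran from H19, at 0.650 CPM at P10, to a gene kept at a similar level, Igf2bp2. Mesenchymal cells, which held 1532 of the 3160 H19 UMIs of E18.5, numbered 635 at E18.5 and 212 at P10. The whole libraries differ in their cells, with 3750 AT1-like cells (alveolar type 1, the flat gas exchange cells) at E18.5 and no cluster of that name at P10, where a cluster of 76 cells held both AT1 and AT2 markers, so the genes are given by cell class below.

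**Figure D1:**
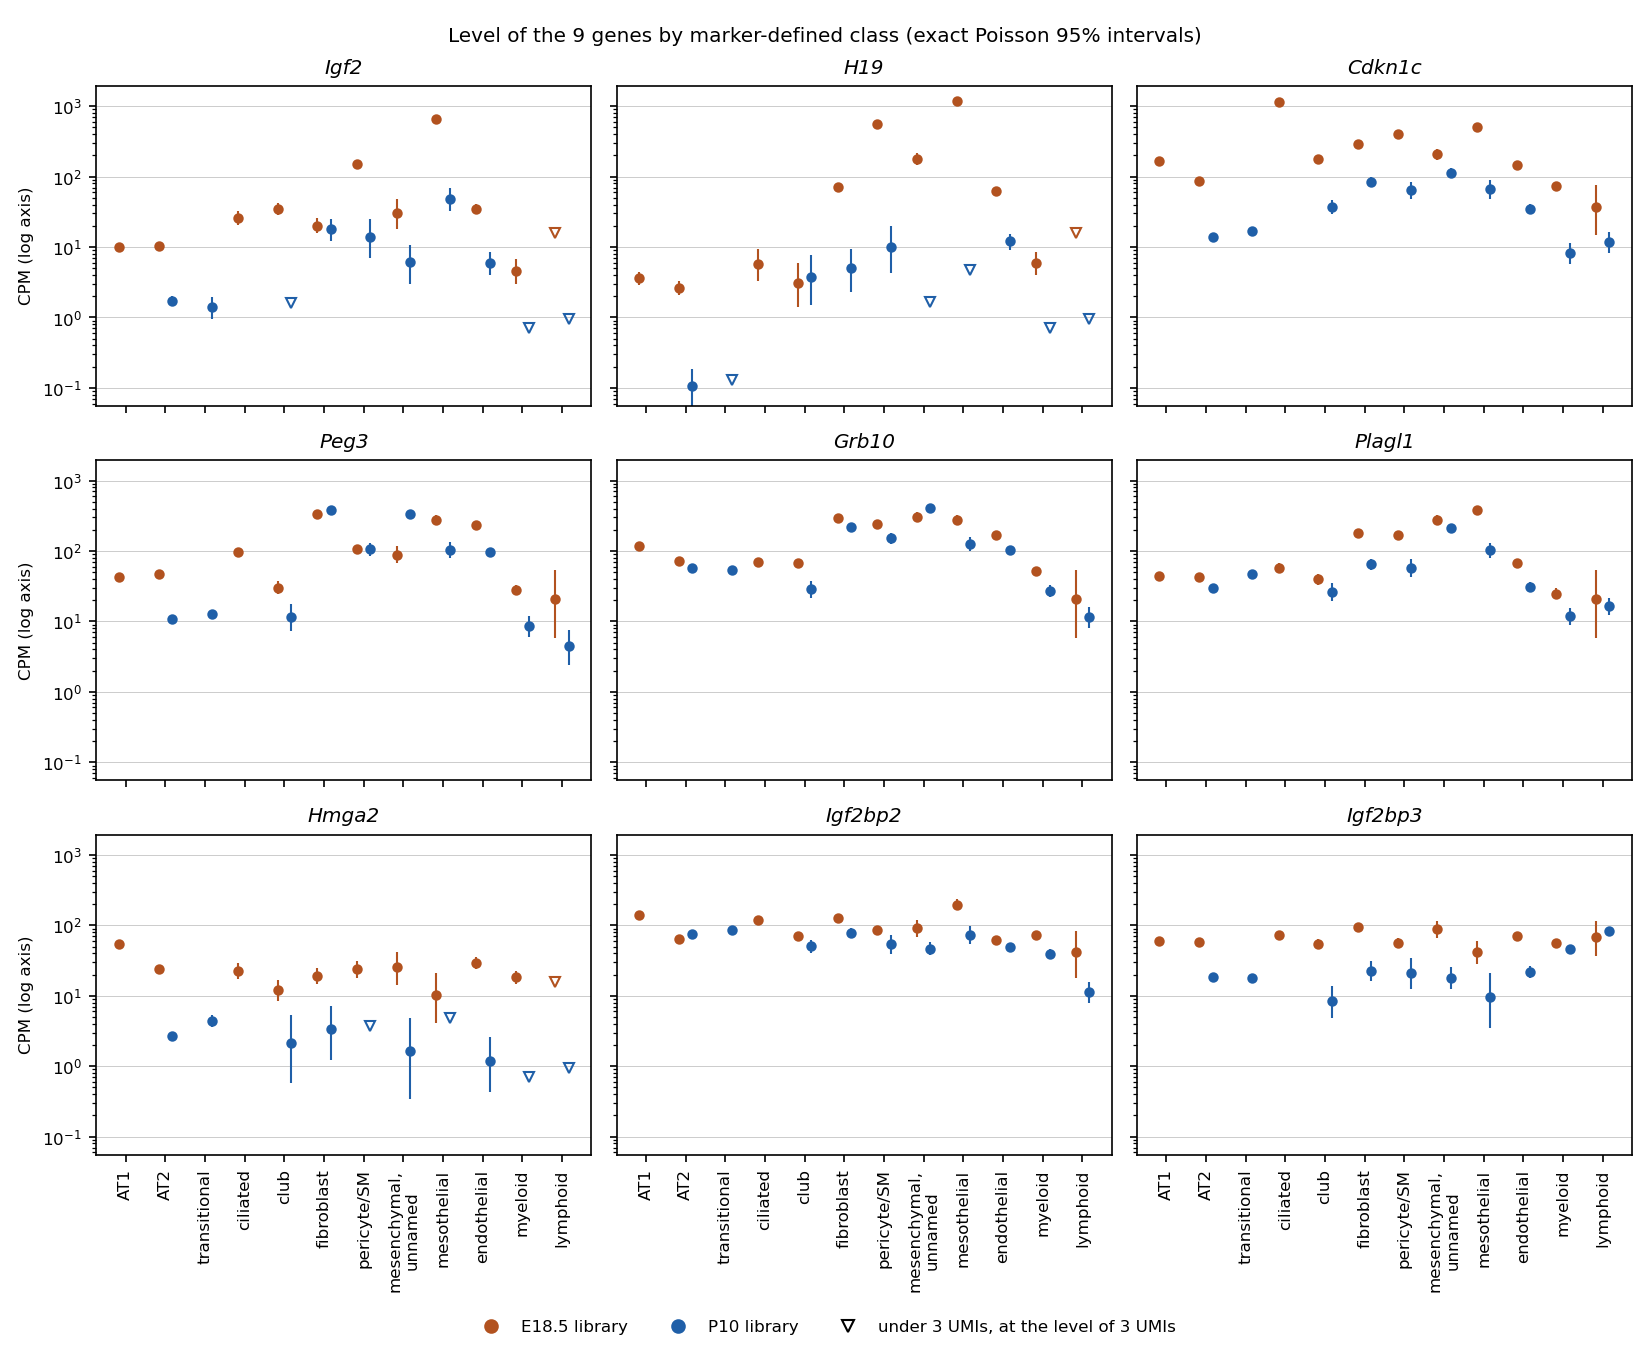
Level of each of the 9 genes (CPM, log axis) in marker-defined classes of the E18.5 library (orange) and the P10 library (blue), with exact Poisson 95% intervals. Open triangles stand at the level of 3 UMIs for sums with fewer UMIs. H19 and Igf2 peak in mesothelial-like cells of E18.5 (1202 and 656 CPM), Cdkn1c in ciliated-like cells (1158 CPM), and Igf2bp3 ranges from 41.8 to 94.4 CPM over the E18.5 classes.

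At E18.5, 8 of the 9 genes had their highest level among epithelial, mesenchymal, endothelial and immune cells in the mesenchymal ones. Of the 10334 genes measured there, 27.4% had. H19 showed the widest spread, with 274 CPM in mesenchymal, 62.2 in endothelial, 5.75 in immune and 3.37 CPM in epithelial cells. Igf2 followed the same order at the top, with 74.3 CPM in mesenchymal, 34.8 in endothelial, 11.8 in epithelial and 4.45 CPM in immune cells. Plagl1 stood at 175 CPM in mesenchymal cells and 66.7 in endothelial, 46.9 in epithelial and 24.7 CPM in immune cells. Grb10 stood at 274, 166, 88.5 and 50.9 CPM in the same order of cells, and Cdkn1c at 337 in mesenchymal, 177 in epithelial, 144 in endothelial and 71.3 CPM in immune cells. For the other 3 the lead was small, with mesenchymal over second-highest ratios of 1.05 for Peg3, 1.14 for Igf2bp2 and 1.11 for Igf2bp3. Peg3 was at 243 CPM in mesenchymal and 232 CPM in endothelial cells, and was no longer highest in mesenchymal cells when every cell counted alike, when cells were thinned to equal depth, or at a finer clustering, which also moved Igf2bp3 out. Hmga2 was the exception, with 34.4 CPM in epithelial, 29.4 in endothelial, 21.1 in mesenchymal and 17.8 CPM in immune cells, and it became highest in mesenchymal cells when each cell was placed by broad marker genes instead of by cluster.

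**Figure D2:**
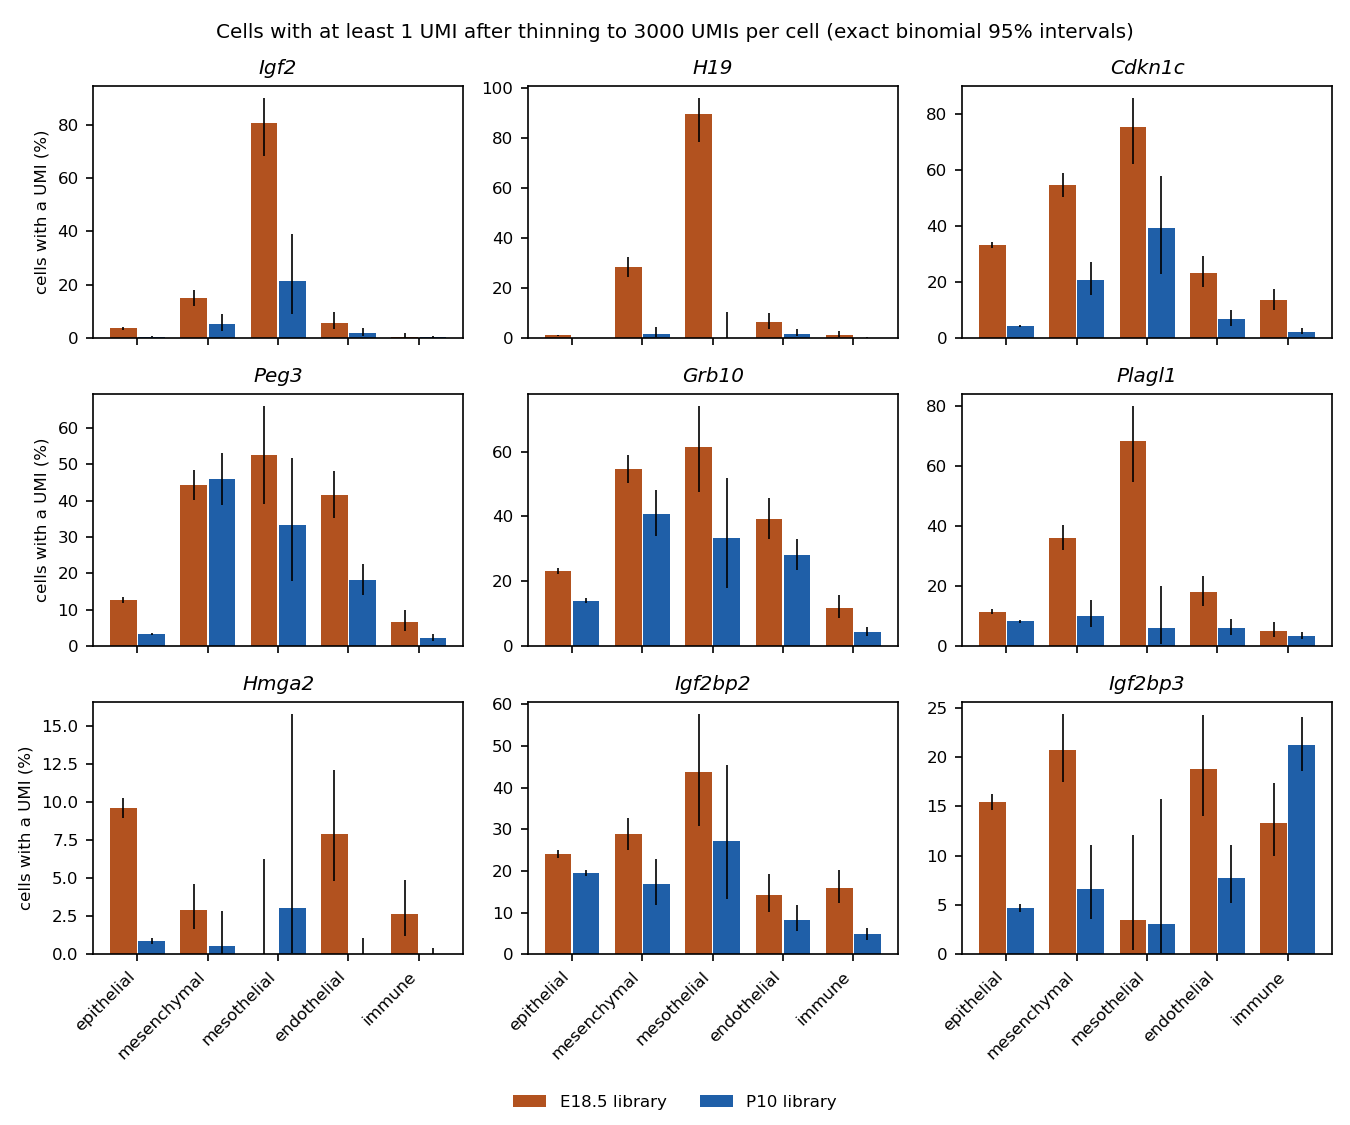
Share of cells with at least 1 UMI of each gene (%) after every cell was thinned to 3000 UMIs, for 5 compartments of the E18.5 library (orange) and the P10 library (blue), with exact binomial 95% intervals. The vertical scale differs between genes. H19 was found in 89.5% of thinned mesothelial-like and 28.3% of mesenchymal cells at E18.5, and in 1.16% of immune cells.

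The share of cells with a UMI was compared at equal depth, after every cell was thinned to 3000 UMIs and cells below that depth (1332 at E18.5, 823 at P10) were dropped. H19 was detected in 28.3% of mesenchymal, 6.25% of endothelial, 1.16% of immune and 1.07% of epithelial cells before birth. The epithelial share of H19 was thus close to the immune share. Igf2 was detected in 14.96% of mesenchymal and 3.60% of epithelial cells against 0.580% of immune cells. Without thinning, median depths were 5219 UMIs in mesenchymal, 8893 in epithelial and 10099 in immune cells. Igf2bp3 was found in 20.7% of mesenchymal, 18.8% of endothelial, 15.4% of epithelial and 13.3% of immune cells, and in 3.51% of mesothelial-like cells.

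Within the mesenchymal cells, Igf2 and H19 belonged to the pericyte or smooth muscle-like cluster far more than to the fibroblast-like one. At E18.5, Igf2 stood at 151 CPM in 229 pericyte or smooth muscle-like cells and at 20.2 CPM in 406 fibroblast-like cells, and H19 at 560 and 72.1 CPM. Peg3 went the other way, with 339 CPM in fibroblast-like and 106 CPM in pericyte or smooth muscle-like cells. Grb10 and Plagl1 differed less, with Grb10 at 295 and 245 CPM and Plagl1 at 180 and 169 CPM in fibroblast-like and pericyte or smooth muscle-like cells. Another mesenchymal cluster with no class name, led by Nrxn3, Csmd1 and Hhip and holding 75 cells, had H19 at 178 CPM and Plagl1 at 276 CPM.

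The highest levels of Igf2 and H19 in the series were in 57 mesothelial-like cells of E18.5, named from markers such as Upk3b of the lining of the lung surface, and led by Sfrp2 and Rarres2. Igf2 stood at 656 CPM there (597 to 720) and H19 at 1202 CPM (1121 to 1286). These 57 of 12027 cells held 455 of the 2426 Igf2 UMIs and 833 of the 3160 H19 UMIs of the library. An Igf2 UMI was found in 98.2% of them before thinning and in 80.7% after it. Cdkn1c (511 CPM), Plagl1 (385 CPM) and Igf2bp2 (198 CPM) also stood above their fibroblast-like levels there, while Hmga2 was at 10.1 CPM on 7 UMIs. In 53 of these cells both Upk3b and Sfrp2, a gene of mesenchymal cells, had a UMI, and the signal did not rest on a single cell, since the top cell held 5.93% of the Igf2 UMIs.

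**Figure D3:**
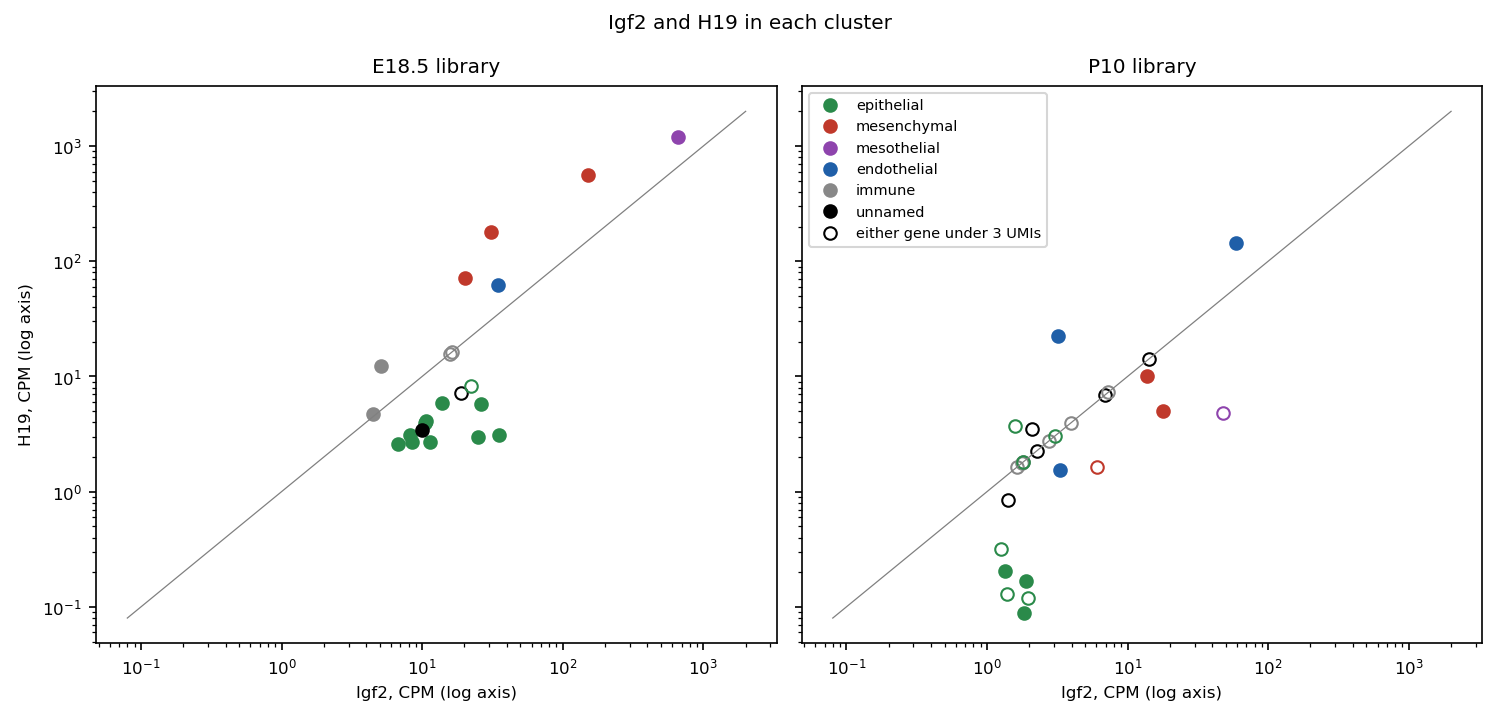
Igf2 against H19 (CPM, log axes) in each cluster of the E18.5 library (left) and the P10 library (right), coloured by compartment, without the clusters that carry alveolar RNA. The line marks equal CPM, and open circles have either gene under 3 UMIs and stand at the level of 3 UMIs where below it. Mesenchymal, mesothelial and endothelial clusters of E18.5 lie above the line and epithelial clusters below it.

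Igf2 and H19 share enhancers in cells of mesodermal and endodermal origin, and the ratio of their UMIs differed between classes. At E18.5 there were 3.71 H19 UMIs per Igf2 UMI in pericyte or smooth muscle-like, 3.58 in fibroblast-like, 1.83 in mesothelial-like and 1.79 in endothelial cells. Epithelial classes had more Igf2 than H19, with 0.364 H19 UMIs per Igf2 UMI in AT1-like, 0.256 in AT2-like and 0.0882 in club-like cells. Immune cells lay between, at 1.29 on 24 Igf2 and 31 H19 UMIs. Set against collagen RNA, which fibroblasts make in quantity, AT2-like cells held 52.3 Igf2 UMIs per 100 UMIs of collagen genes. The same measure was 42.3 in endothelial, 22.1 in pericyte or smooth muscle-like, 14.2 in mesothelial-like, 4.02 in immune and 0.466 in fibroblast-like cells. It depends on the collagen RNA of each class, with 560 collagen UMIs in AT2-like and 14150 in fibroblast-like cells. How much Igf2 RNA in a class came from other cells was not tested. Among airway cells, Igf2 stood at 35.0 CPM in club-like and 26.1 CPM in ciliated-like cells, against 9.88 CPM in AT1-like and 10.4 CPM in AT2-like cells.

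Cells with an Igf2 UMI also tended to hold an H19 UMI in the mesenchymal compartment. At 3000 UMIs per cell, 72.3% of the 83 mesenchymal cells with Igf2 also had H19, against 20.6% of the 472 without Igf2 (intervals 61.4 to 81.6 and 17.0 to 24.5). Within pericyte or smooth muscle-like cells the shares were 84.6% of 65 and 47.1% of 140 cells, and within fibroblast-like cells 27.8% of 18 and 9.34% of 332, so part of the pooled difference lies between the 2 clusters. In epithelial cells 7 of 291 cells with Igf2 had H19, 2.41%, against 1.01% of those without.

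Cdkn1c had its highest level in ciliated-like cells, the airway cells with motile cilia, at 1158 CPM (1118 to 1199) in 279 cells of E18.5. It was detected in 81.0% of them at equal depth. A cluster with both club and ciliated markers stood at 682 CPM and club-like cells, the secretory cells of the airway, at 178 CPM. AT1-like cells (165 CPM) and AT2-like cells (87.5 CPM) stood lower, above the 71.3 CPM of immune cells. The signal was spread over the ciliated-like cells, with 3.01% of its UMIs in the top cell.

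Hmga2 and Igf2bp2 were higher in AT1-like than in AT2-like cells of E18.5. Hmga2 stood at 53.7 CPM in AT1-like and 24.0 CPM in AT2-like cells, and at 58.0, 47.6 and 59.4 CPM in the 3 AT1-like clusters. Igf2bp2 stood at 141 and 63.9 CPM, with the 3 AT1-like clusters at 158, 114 and 174 CPM. Immune cells stood at 72.4 CPM for Igf2bp2, above the AT2-like level. At equal depth Hmga2 was found in 13.6% of AT1-like and 6.10% of AT2-like cells, against 2.61% of immune cells. Grb10 and Cdkn1c also stood above their AT2-like levels in AT1-like cells, whereas Igf2bp3 was at 60.1 and 58.1 CPM and Igf2 at 9.88 and 10.4 CPM.

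Between ages, AT2-like cells are the class that both libraries hold in number, 2478 cells at E18.5 and 9357 at P10. There, 5 of 8 measured genes were at least 2-fold lower at P10 and none higher, where 10.4% of the 8395 measured genes were lower and 15.2% higher. Igf2 and Hmga2 reached 10 CPM at E18.5 only and so could not be called higher. The median log2 ratio was -1.87 for the 8 and 0.20 for all measured genes. Hmga2 went from 24.0 to 2.72 CPM, 8.82 times lower (7.69 to 10.1), and Cdkn1c from 87.5 to 13.9 CPM, 6.31 times (5.92 to 6.73). Igf2 went from 10.4 to 1.73 CPM, 5.98 times (4.97 to 7.21), Peg3 from 46.7 to 10.99 CPM, 4.25 times (3.93 to 4.60), and Igf2bp3 from 58.1 to 18.45 CPM, 3.15 times (2.95 to 3.36). Grb10 (71.1 and 56.7 CPM) and Plagl1 (42.2 and 29.4 CPM) were within 2-fold, and Igf2bp2 was slightly higher at P10 (63.9 and 75.8 CPM, log2 ratio 0.25, 0.17 to 0.32). H19 did not reach 10 CPM at either age in AT2-like cells (75 and 12 UMIs). Immune cells stood at 71.3 (E18.5) and 9.71 CPM (P10) for Cdkn1c and at 17.8 and 0.135 CPM for Hmga2. They stood at 28.0 and 6.87 CPM for Peg3 and at 4.45 and 0.404 CPM for Igf2. The part of RNA from other cells in the AT2-like differences was not tested.

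Gene length moved with the ratios of all genes in AT2-like cells, with a median log2 ratio of -0.60 in the shortest of 20 length bins and 0.93 in the longest. Set against genes of like length, Grb10 (-1.09) and Plagl1 (-1.07) also passed 2-fold, by a small margin, making 7 of 8, and Igf2bp2 turned to -0.41. Of all 8395 measured genes, 817 were lower and 712 higher by that measure. Hmga2 went from -3.14 to -3.90, Igf2bp3 from -1.65 to -2.42 and Cdkn1c from -2.66 to -2.06. Lower genes were 40.6% of those past 2-fold either way, and 53.2% with totals that leave out mitochondrial, ribosomal protein and haemoglobin genes, with the same 5 genes of the set lower. The 5 P10 clusters of AT2-like cells resembled each other, with Cdkn1c from 12.5 to 15.7 CPM and Igf2bp2 from 73.8 to 78.3 CPM. The P10 transitional alveolar-like cells, led by Sprr1a and Areg, had Plagl1 at 47.1 and Hmga2 at 4.43 CPM, against 29.4 and 2.72 CPM in AT2-like cells. In the P10 cluster with both AT1 and AT2 markers, which was led by the AT1 genes Rtkn2 and Hopx, Hmga2 was at 5.04 CPM on 5 UMIs and Igf2bp2 at 99.8 CPM.

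**Figure D4:**
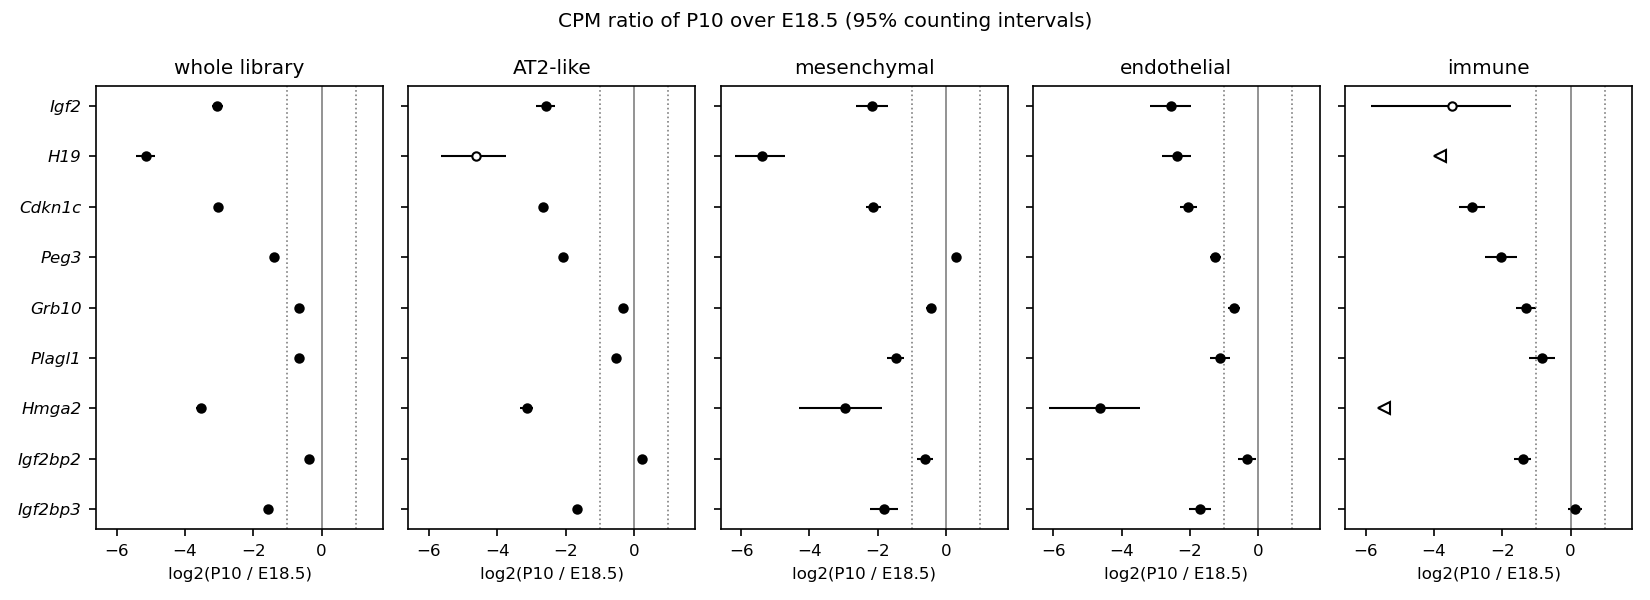
Log2 ratio of CPM at P10 over E18.5 for the 9 genes in whole libraries and 4 kinds of cell, with 95% counting intervals. Dotted lines mark 2-fold, open circles are genes under 10 CPM at both ages, and open triangles have under 3 UMIs at P10 and stand where 3 UMIs would. Igf2, H19, Cdkn1c and Hmga2 lie left of the 2-fold line in every panel, Peg3 is right of 0 in mesenchymal cells and Igf2bp3 in immune cells.

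In mesenchymal cells, 6 of 9 genes were at least 2-fold lower at P10 and none higher (background 9.50% lower and 14.3% higher of 9982 genes). H19 and Hmga2 reached 10 CPM at E18.5 only and so could not be called higher. H19 went from 274 to 6.56 CPM, 41.8 times lower (26.0 to 71.9), Hmga2 from 21.1 to 2.70 CPM (7 UMIs), Igf2 from 74.3 to 16.6 CPM, Cdkn1c from 337 to 77.2 CPM, Igf2bp3 from 78.8 to 22.4 CPM and Plagl1 from 175 to 62.9 CPM. Peg3 did not follow, with 243 CPM before birth and 297 CPM after it (log2 ratio 0.29, 0.16 to 0.42). Over the alternatives in processing this ratio of Peg3 ranged from 0.02 to 0.45. Fibroblast-like cells, where Peg3 was the higher at E18.5, held 3272274 of 5586673 mesenchymal UMIs at E18.5 and 1794834 of 2591121 at P10. The part of this makeup in the Peg3 ratio was not tested. Grb10 (274 and 200 CPM) and Igf2bp2 (109 and 71.4 CPM) were within 2-fold. Sizes depended on the processing. The log2 ratio of Hmga2, -2.97, was -1.08 with cells thinned to 3000 UMIs, and that of Cdkn1c, -2.13, was -1.17 at a coarser clustering. With every cell counting alike, H19 went from -5.39 to -4.05 and Igf2 from -2.16 to -1.54. Plagl1 dropped out of the count, leaving 5, when the mesenchymal cluster with no class name was counted in, at a finer clustering and when cells were placed by broad marker genes. Lower genes were 40.0% of those past 2-fold, and 50.5% with the totals named above.

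Igf2 differed between ages in the pericyte or smooth muscle-like cells and not detectably in the fibroblast-like ones. In the former it went from 151 to 13.8 CPM, 10.9 times lower (6.03 to 22.1), while fibroblast-like cells stood at 20.2 and 17.8 CPM, a ratio of 1.13 (0.731 to 1.78). H19 was lower in both, from 560 to 10.0 CPM in pericyte or smooth muscle-like and from 72.1 to 5.01 CPM in fibroblast-like cells, so that at P10 fibroblast-like cells held 0.281 H19 UMIs per Igf2 UMI. Peg3 in the cluster with no class name went from 89.0 CPM in 75 cells to 332 CPM in 182 cells (log2 ratio 1.90, 1.49 to 2.34). Whether the cells of this name are the same kind at both ages was not tested.

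Endothelial cells had 7 of 9 genes at least 2-fold lower at P10 and none higher (background 8.67% lower and 13.3% higher of 9743 genes). Igf2 and Hmga2 reached 10 CPM at E18.5 only and so could not be called higher. Hmga2 showed the largest ratio, from 29.4 to 1.18 CPM (6 UMIs), 24.98 times (11.1 to 69.5). Igf2 went from 34.8 to 5.89 CPM, H19 from 62.2 to 12.0, Cdkn1c from 144 to 34.8, Igf2bp3 from 71.1 to 21.8, Peg3 from 232 to 96.7 and Plagl1 from 66.7 to 30.8 CPM. Grb10 (166 and 102 CPM) and Igf2bp2 (62.9 and 49.9 CPM) were within 2-fold. At E18.5 a single cell held 20.4% of the endothelial Igf2 and a single cell 16.7% of the H19 UMIs. With cells placed by broad marker genes Plagl1 dropped out, leaving 6. The log2 ratio of H19, -2.38, ranged from -3.05 with thinned cells to -1.59 at the finer clustering, that of Hmga2, -4.64, was -3.60 with thinned cells, and that of Cdkn1c, -2.05, was -1.46 with every cell counting alike. Lower genes were 39.5% of those past 2-fold, and 52.1% with the totals named above.

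H19 at P10 rested on few endothelial cells. Of the 61 endothelial H19 UMIs, 34 were in a cluster of 17 cells led by Ccl21a, Reln, Mmrn1 and Prox1, genes known from lymphatic vessels, and 20 of these in 1 cell. This cluster had Igf2 at 58.8 CPM (32.1 to 98.6) on 14 UMIs, in 8 of its 17 cells, against 3.32 and 3.19 CPM in the other endothelial clusters. It had no Peg3 UMI, where the other clusters stood at 108 and 74.5 CPM. At E18.5 endothelial cells formed 1 cluster at the resolution used. A finer clustering split them into 189 and 139 cells, the latter with Ccl21a among its leading genes and with alveolar RNA, and the genes were not compared between these.

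Mesothelial-like cells, 57 at E18.5 and 33 at P10, had all 9 genes at least 2-fold lower at P10 (background 12.8% lower and 15.5% higher of 10153 genes). H19, Hmga2 and Igf2bp3 reached 10 CPM at E18.5 only and so could not be called higher. Igf2 went from 656 to 47.8 CPM, 13.7 times lower (9.48 to 20.6), and still had its highest P10 level among named classes there. H19 went from 1202 CPM to a single UMI, a ratio of 753 (135 to 29795), which is 251 with P10 set to the floor of 3 UMIs. Plagl1 went from 385 to 102, Cdkn1c from 511 to 67.0 and Igf2bp2 from 198 to 73.4 CPM. Hmga2 rested on 7 and 1 UMIs, and its interval included equal levels.

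In immune cells, where the background was 11.9% lower and 22.8% higher of 9453 genes, 5 of 7 measured genes were lower at P10. Cdkn1c, Peg3 and Hmga2 reached 10 CPM at E18.5 only and so could not be called higher. Cdkn1c went from 71.3 to 9.71, Peg3 from 28.0 to 6.87, Grb10 from 50.9 to 20.5, Igf2bp2 from 72.4 to 27.4 and Hmga2 from 17.8 to 0.135 CPM. That P10 level is 1 UMI, and the ratio of 132 (23.2 to 5275) is 44.1 with P10 set to the floor of 3 UMIs. Its log2 ratio at the floor, -5.46, was -3.10 when cells were thinned to 3000 UMIs. Summed epithelial marker genes in the same cells were lower as well, 2537 CPM before birth and 649 CPM after it. They were also lower in epithelial cells, at 5174 and 2148 CPM, while Sftpc was higher in immune cells at P10. The part of RNA from other cells in these differences was not tested. With the clusters that carry alveolar RNA counted in, or with cells placed by broad marker genes, 3 genes remained, Cdkn1c, Peg3 and Hmga2. Immune cells also differ in makeup, with 30 lymphoid-like of 417 cells at E18.5 and 690 of 1253 at P10, and in myeloid-like cells alone 4 of 7 were lower (background 11.8% lower and 18.7% higher).

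Igf2bp3 had its highest P10 level in immune cells, at 62.1 CPM against 22.4 in mesenchymal, 21.8 in endothelial and 18.2 CPM in epithelial cells. Lymphoid-like cells stood at 83.9 CPM and myeloid-like cells at 46.1 CPM, and the largest lymphoid-like cluster at 110 CPM. At equal depth 21.2% of immune cells had a UMI against 4.65% of epithelial cells, with median depths of 3991 and 10522 UMIs before thinning. The P10 order of the other genes kept mesenchymal cells on top for Igf2, Cdkn1c, Peg3, Grb10 and Plagl1, 5 of the 8 genes measured at P10, where 24.6% of 11108 genes were highest in mesenchymal cells. Igf2bp2 stood at 77.1 CPM in epithelial and 71.4 CPM in mesenchymal cells, and H19 at 12.0 CPM in endothelial and 6.56 CPM in mesenchymal cells. Of the 61 endothelial H19 UMIs, 20 were in 1 cell. At equal depth the mean was 0.0201 H19 UMIs per endothelial and 0.0357 per mesenchymal cell. These means rested on 6 of 349 endothelial and 3 of 196 mesenchymal cells with H19. A mesenchymal cell held up to 4 UMIs, so the order is not settled.

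Other genes of the same pathways were described from lists, by the count of their measured members past 2-fold in AT2-like cells beside 10.4% lower and 15.2% higher among all genes. Here too, genes that reached 10 CPM at 1 age only could not be called higher at the other. Of 15 measured other imprinted genes, 7 were lower and 1 higher at P10, with a median log2 ratio of -0.92. Dlk1, a Notch-related surface protein, went from 3339 to 4.93 CPM, Mirg, a noncoding RNA of the Dlk1 domain, from 113 to 5.12 CPM, and Zrsr1, a splicing factor gene, from 4.99 to 10.6 CPM. Unlike Igf2 and H19, Dlk1 was higher in AT2-like than in mesenchymal cells of E18.5 (3339 and 836 CPM). The other imprinted genes had like counts elsewhere, with 7 of 16 lower and none higher in mesenchymal cells (9.50% and 14.3% over all genes), 8 of 18 and none in endothelial (8.67% and 13.3%) and 7 of 18 and none in mesothelial-like cells (12.8% and 15.5%). Their median log2 ratio was -0.95, -0.85 and -0.86 in these cells, beside 0.11, 0.14 and 0.05 over all measured genes. Dlk1 and Mirg led in each of the 3.

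Of 10 measured genes of the IGF pathway, 2 were lower and 2 higher (median -0.29). The binding proteins Igfbp6 (155 to 43.2 CPM) and Igfbp5 (10.7 to 5.15 CPM) were lower, and Irs2, a docking protein of the insulin and IGF receptors (76.0 to 248 CPM), and Insr, the insulin receptor (41.0 to 113 CPM), were higher. The IGF1 receptor gene Igf1r stood at 88.0 and 49.7 CPM in AT2-like cells, and Igf2r, which clears IGF2, at 41.3 and 46.4 CPM. Ins2, the insulin gene beside Igf2, had no UMI in AT2-like cells of E18.5. In mesenchymal cells Igf2r was lower at P10 (210 to 90.3 CPM) and Igf1, the main postnatal IGF, higher (27.9 to 57.5 CPM), among 5 lower and 2 higher of 18, beside 9.50% lower and 14.3% higher over all genes there. The other leading genes there were Stc1, a secreted inhibitor of the IGF-releasing protease Pappa (25.1 to 2.32 CPM), and Grb14, the adaptor related to Grb10 (36.3 to 94.6 CPM).

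The let-7 axis and other oncofetal genes had 2 of 11 lower and none higher in AT2-like cells (median -0.18), namely Igf2bp1, the third Igf2bp gene (10.2 to 1.13 CPM), and Gpc3, a glypican (76.5 to 28.8 CPM). Lin28a and Lin28b, which block let-7 maturation, were at 0 and 2 UMIs in AT2-like cells of E18.5. Over all genes in AT2-like cells, 7.63% of 262 with 1 match CTACCTCA were lower. The share was 10.3% of 7884 without one, and 1 of 15 genes with 2 or more was lower. Shorter matches were not counted in this grouping, and a part of let-7 in the differences between ages was not tested. Among neighbours of Igf2, H19 and Cdkn1c on chromosome 7, 1 of 9 was lower and none higher, Phlda2, a placental growth restrainer (18.0 to 4.63 CPM). Of 4 measured CDK inhibitors, 2 were lower, Cdkn2b (70.3 to 13.8 CPM) and Cdkn1a (391.9 to 125 CPM), and of the cell division genes 1 of 16 reached 10 CPM.

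The genes most alike in level were found over 23 sums of a class in a library with at least 50 cells, by Pearson's r of log2(CPM + 10) among 7025 genes, as a description only since sums of 1 library share its depth and its free RNA. Igf2 and H19 were among each other's closest 3 (r = 0.88), beside P3h4 (0.91) and Dctn6 (0.85) for Igf2 and Lysmd3 (0.85) and the imprinted gene Ndn (0.82) for H19. Peg3 was closest to Grb10 (0.90), followed by Rcn1 (0.88) and Gulp1 (0.87). Grb10 was closest to Tcaf1 (0.92), Serpinh1, a collagen chaperone (0.91), and Calu (0.91), and Plagl1 to Nrep (0.90), Col27a1 (0.88) and Grb10 (0.88). Cdkn1c was closest to Serf1 (0.94), Abhd14a (0.93) and Mrfap1 (0.93). Hmga2 was closest to Fxyd4, Phgr1 and S100a14 (0.95 each), and Igf2bp2 to Adamtsl1 (0.90), Aldh6a1 (0.84) and Arhgap5 (0.84). Igf2bp3 was closest to the histone gene H3f3a (0.92) and the splicing factor genes Snrpe (0.92) and Snrpg (0.91).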

How the data were processed

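Values are the authors' deposited UMI counts, not normalized. Cell Ranger 7.0.1 made them, per the file headers. The submitters' processing notes name the mm10 build and Seurat 4.0.0, whose role is not stated. The labels name a version 2 kit, while the barcodes look like those of a later kit generation. Strand and intron settings are not given in the sources used here.

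Barcodes needed 500 genes, 1000 UMIs and no more than 20% of UMIs from mitochondrial genes, leaving out 712 barcodes of 137837590 UMIs in all at E18.5 and 417 of 171205348 at P10. Each library was clustered on its own (2000 variable genes without the 9 genes and all listed genes, 30 principal components, 15 neighbours, Leiden resolution 1), into 25 and 31 clusters, and clusters were named "-like" from marker lists by a rule set after the clusters were seen. A difference in names from the study's own may come from this. No doublet caller was run. Non-epithelial clusters carrying alveolar RNA (1005 cells, 8.36%, at E18.5 and 357, 2.53%, at P10) were left out of class sums, and 579 and 511 cells stayed unnamed.

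UMIs were summed per class and scaled to CPM. Ratios carry an exact conditional binomial interval, levels an exact Poisson interval and shares a Clopper-Pearson interval. A gene counted as measured at 10 CPM in either sum, and as lower or higher at 2-fold, with 3 UMIs as the floor. A gene that reached 10 CPM at 1 age only could thus not be called higher at the other age. The step was tested on simulated counts. The named genes are the 9, and of each list the 2 measured genes with the largest ratio past 2-fold in each direction, with a few of known role named after their values were seen (Igf1r, Igf2r, Ins2, Lin28a and Lin28b in AT2-like cells). The 9 genes, the lists and the alternatives were chosen with earlier results of these data known. Python 3.11.15 was used with numpy 2.4.6, scipy 1.17.1, pandas 2.3.3, scikit-learn 1.9.0, leidenalg 0.10.2, igraph 0.11.9 and matplotlib 3.10.9, and positions and 3′ regions are those of GENCODE vM21 on mm10.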

Additional observations from a re-analysis of the deposited data

Results flagged for a closer look

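Peg3 differed in direction between cells under the same comparison of ages, with a log2 ratio of P10 over E18.5 of 1.90 in the mesenchymal cluster with no class name and -2.09 in AT2-like cells. Grb10 did so at a smaller size, with 0.39 in that cluster and -1.23 in club-like cells. Igf2bp2 stood at 0.25 in AT2-like and -1.43 in mesothelial-like cells. Its AT2-like value lay near the median of all genes there, 0.20, and became -0.41 against genes of like length, so its direction depends on the processing. The counting intervals of each pair lie on opposite sides of 0, and with 1 library per age the differences between the cells were not tested. Peg3 stood at 0.29 in the named mesenchymal cells. Whether the cluster with no class name holds the same kind of cells at both ages was not tested.

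Cells that entered no comparison also held some of these genes. Igf2bp3 stood at 99.9 CPM in an unnamed E18.5 cluster of 207 cells with few UMIs per cell. Cdkn1c stood at 303 CPM in an unnamed P10 cluster of 81 cells led by Kcnq5 and Gucy1a1, above each named P10 class.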

How the results depend on the processing

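No paired analysis was possible because each age has 1 library. Among the counts, 2 changed by more than 1.5 times. The immune count of genes at least 2-fold lower, 5, was 3 with clusters that carry alveolar RNA counted in and 3 with compartments by broad marker genes. The listed genes lower in AT2-like cells, 13, were 32 with no minimum in CPM. The cause was not tested beyond what the wider set of genes or cells gives by construction. Other counts ranged from 6 to 7 in whole libraries, 5 to 7 in AT2-like, 5 to 7 in mesenchymal and 6 to 8 in endothelial cells, and the genes highest in mesenchymal cells at E18.5 from 6 to 9. Of 486 recomputed single values, 147 moved beyond counting error and no ratio past 2-fold changed sign. Ratios near 0 did change sign, namely Igf2bp2 in AT2-like cells (-0.41 to 0.36), Igf2bp3 in immune (-0.66 to 0.75) and Grb10 in mesenchymal cells (-0.89 to 0.05). With totals without mitochondrial, ribosomal protein and haemoglobin genes the median of all genes went from 0.02 to -0.10 in whole libraries, 0.20 to 0.06 in AT2-like, 0.11 to -0.02 in mesenchymal and 0.14 to 0.01 in endothelial cells. Over whole libraries the log2 ratio of H19 ranged from -5.91 to -4.56. Depth limits ratios with few UMIs at P10, where H19 and Hmga2 had 1 UMI each in immune and in mesothelial-like cells and Igf2 had 3 in immune cells. Alternatives added after seeing the data were counting in the mesenchymal cluster with no class name, and whole libraries without unnamed clusters and those with alveolar RNA.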
